A study of Mus musculus with 22 samples.

Results

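Retinoid X receptor (RXR) occupied 7834 sites on chromosomes 1 to 19 and X in undifferentiated MC3T3-E1 cells under vehicle, and 2565 of them overlapped no RXR site in the same cells with calcitriol. These 2565 vacated sites are described here beside the 5269 vehicle sites that overlapped an RXR calcitriol site by at least 1 bp (kept sites) and the 2334 calcitriol sites with no vehicle counterpart (gained sites). The sites were thus chosen by the measured RXR calls, so the absence of RXR with calcitriol is their definition and not a result. MC3T3-E1 is a clonal mouse calvaria line of the osteoblast lineage that lays down mineralised matrix in culture, and no genetic change is named in the labels. Calcitriol, 1,25-dihydroxyvitamin D3, was given at 100 nM for 3 h, and vehicle was ethanol for the same 3 h; differentiated cells had first spent 15 days in medium with glycerol-2-phosphate and ascorbic acid. Chromatin immunoprecipitation and sequencing (ChIP-seq) gave 1 peak list for each antibody, state and treatment: RXR and the vitamin D receptor (VDR) with calcitriol and with vehicle, and C/EBPβ, RUNX2, H4K5ac, H3K9ac, H3K4me1, H3K4me3 and H3K36me3 with calcitriol.

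RXR is a nuclear receptor that binds DNA mostly as the shared partner of other receptors, among them VDR, the retinoic acid receptors (RARs), the peroxisome proliferator-activated receptors (PPARs), the liver X receptors (LXRs) and the thyroid hormone receptors. Each pair prefers a direct repeat of the hexamer NGNTCA, with A or G at the first N and G or T at the second, and the spacing between the hexamers differs between pairs: DR3, with a spacer of 3 bases, is the classical element of VDR and RXR, DR1 is that of PPAR and RXR, DR4 that of LXR or thyroid hormone receptor and RXR, and DR5 that of RAR and RXR. In osteoblasts, RUNX2 is the factor without which the lineage does not form, and C/EBPβ acts beside it at bone genes.

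The full sequences of 4 vacated sites are printed as examples (mouse build mm9, plus strand). They were picked among sites that hold motif matches, so they do not show how common the motifs are. They were taken from genes of the nuclear receptor and bone lists described below and show a site in each of 4 settings: at a receptor gene's start, in an intron of a bone gene, between genes with all 3 other factors, and with a DR5 match but no other factor. Capitals mark matches on either strand to the RUNX motif TGNGGTN (C or T at both N), the C/EBP motif TTNCNNAA (A or G at the first N), the NF1 hexamer TTGGCA, and the direct repeats, for which 1 mismatch was allowed.
Rarg, chr15:102073984-102074184: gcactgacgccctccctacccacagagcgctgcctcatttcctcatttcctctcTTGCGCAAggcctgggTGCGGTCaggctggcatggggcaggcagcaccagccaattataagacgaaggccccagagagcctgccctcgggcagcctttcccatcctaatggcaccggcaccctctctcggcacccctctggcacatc
Phex, chrX:153851506-153851706: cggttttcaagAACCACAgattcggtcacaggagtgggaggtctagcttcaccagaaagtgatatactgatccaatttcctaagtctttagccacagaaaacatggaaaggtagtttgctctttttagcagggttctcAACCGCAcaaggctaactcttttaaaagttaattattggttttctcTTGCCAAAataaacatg
Lef1, chr3:130717413-130717613: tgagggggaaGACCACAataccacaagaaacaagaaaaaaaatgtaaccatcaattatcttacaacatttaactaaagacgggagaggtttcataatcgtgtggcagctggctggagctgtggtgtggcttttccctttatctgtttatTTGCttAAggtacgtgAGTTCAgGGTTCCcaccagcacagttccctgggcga
Bglap, chr3:88135275-88135475: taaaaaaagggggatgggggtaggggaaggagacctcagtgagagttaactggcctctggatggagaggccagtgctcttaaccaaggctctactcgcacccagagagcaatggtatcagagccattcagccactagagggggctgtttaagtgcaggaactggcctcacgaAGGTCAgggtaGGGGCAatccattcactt
The Rarg site, 64 bp from a start of the gene for retinoic acid receptor gamma, was called for C/EBPβ and RUNX2 and for neither differentiated RXR list. The Phex site, in an intron 1612 bp from a start of the gene for the phosphate-regulating endopeptidase of bone, was called for RUNX2 and likewise for neither differentiated RXR list. The Lef1 site lay 95876 bp upstream of the gene for a transcription factor of the Wnt pathway and was called for VDR, C/EBPβ and RUNX2. Unlike the other printed sites, it was in the differentiated RXR calcitriol list. The Bglap site lay in an intron of a neighbouring gene, 52980 bp from a start of the osteocalcin gene. It had none of VDR, C/EBPβ and RUNX2 and was in neither differentiated RXR list.

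The next 3 sequences are examples of DR3 matches of vacated and kept sites (mm9, read on the strand of the match, hexamers in capitals). The 2 from vacated sites are the DR3 matches at the vacated sites that had VDR, and each differs from the hexamer rule at 1 base. That from a kept site near Spp1, the osteopontin gene, is without mismatch. It was picked from the 6 kept sites with such a match, while 112 kept sites had a DR3 with at most 1 mismatch. The 3 sequences are thus no comparison of the sets.
Nudt4, vacated, chr10:95007734-95007748: GGTTCActcAGATCA
Itgb5, vacated, chr16:33894101-33894115: GGGTCAaacAGGCCA
Spp1, kept, chr5:104862179-104862193: GGGTCAtatGGTTCA

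The 22 lists carry no reads per site, so depth is unknown and no value says how strongly RXR was bound. Each list is the authors' overlap of replicates, so there is 1 list per group and no replicate spread. Shares are given with exact Clopper-Pearson 95% intervals and differences between vacated and kept sites, in percentage points, with Newcombe's 95% interval. Sites of 1 list are not replicates of a condition, and the intervals cover counting error only. A site that slipped just under the calling threshold and a site that RXR left cannot be told apart. Of 9 osteoblast markers, 6 had H3K4me3 within 1 kb of a start in undifferentiated cells, but Alpl, Bglap and Ibsp did not; of 8 muscle and 7 blood markers, none did.

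Most vacated sites lay far from any RXR site with calcitriol. The nearest one was over 100 kb away for 632 of them (24.6%), over 10 kb and up to 100 kb away for 1051, and over 1 kb and up to 10 kb away for 530. The centres of 52 vacated sites lay within 250 bp of that of a calcitriol site, and those of 130 more within 400 bp, just outside the overlap rule, while those of 99 kept sites lay over 150 bp from it, just inside the rule. Of the kept sites, 3755 had the 2 centres within 50 bp. A gained site within 10 kb was found for 279 vacated sites (10.9%) and 795 kept sites (15.1%). Within 1 kb it was 98 vacated (3.82%) and 231 kept sites (4.38%), and within 400 bp 59 vacated (2.30%) and 94 kept sites (1.78%). Vacated, kept and gained sites were all defined from the same RXR lists, so these counts are a description and not a test. The Vdr gene held one of the close pairs, with a vacated site 3943 bp upstream of its start and a gained site 3591 bp upstream.

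**Figure D1:**
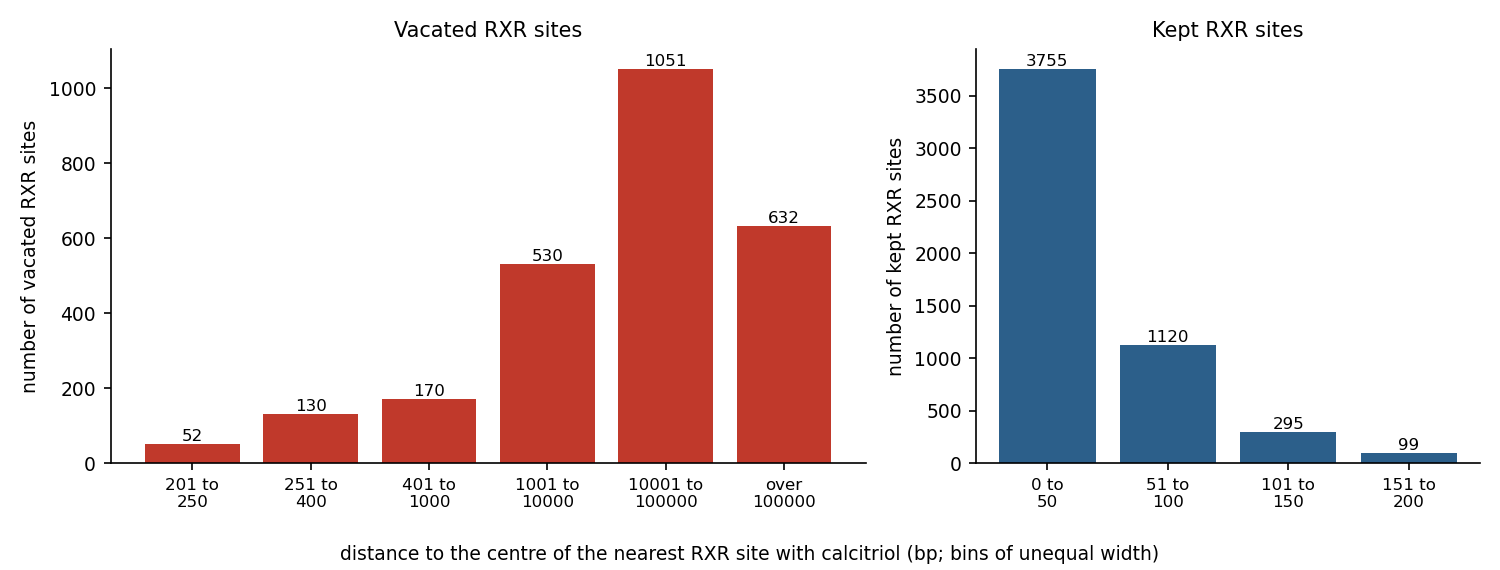
Number of sites by the distance to the centre of the nearest RXR site with calcitriol in undifferentiated cells, for vacated sites (left) and kept sites (right); the bins, in bp, have unequal widths and the scales differ between panels. The distances follow from the rule that chose the sites: 1051 vacated sites fall between 10 and 100 kb, and 3755 kept sites fall within 50 bp.

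Vacated sites carried fewer of the other factors than kept sites. VDR with calcitriol was called at 498 vacated sites (19.4%, 17.9 to 21.0) and at 2956 kept sites (56.1%, 54.7 to 57.4), a difference of -36.7 points (-38.7 to -34.6). For VDR, gained sites stood near the kept ones, at 1228 (52.6%, 50.6 to 54.7). RUNX2 was called at 1352 vacated sites (52.7%) and 3754 kept sites (71.2%), a difference of -18.5 points (-20.8 to -16.2). C/EBPβ was called at 764 vacated sites (29.8%) and 2315 kept sites (43.9%), a difference of -14.2 points (-16.3 to -11.9). For RUNX2 and C/EBPβ, gained sites did not stand near the kept ones. RUNX2 was called at 872 gained sites (37.4%), and vacated minus gained was 15.3 points (12.6 to 18.1). C/EBPβ was called at 716 gained sites (30.7%), and vacated minus gained was -0.891 points (-3.47 to 1.68). None of the 3 factors was called at 847 vacated sites (33.0%) and 764 kept sites (14.5%), a difference of 18.5 points (16.5 to 20.6). The C/EBPβ and RUNX2 lists come from calcitriol-treated cells, so what these factors did at the sites under vehicle was not measured here. Regions merged from more than 2 peaks made up 97 vacated sites (3.78%) and 360 kept sites (6.83%), a difference of -3.05 points (-4.03 to -2.01). The part of merging in the differences between the sets was not tested. With only regions merged from 2 peaks in both RXR lists, 2802 sites counted as vacated and 4575 as kept, and the VDR difference was -30.7 points. Those are other sets, as 2468 of the vacated sites described here were merged from 2 peaks.

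**Figure D2:**
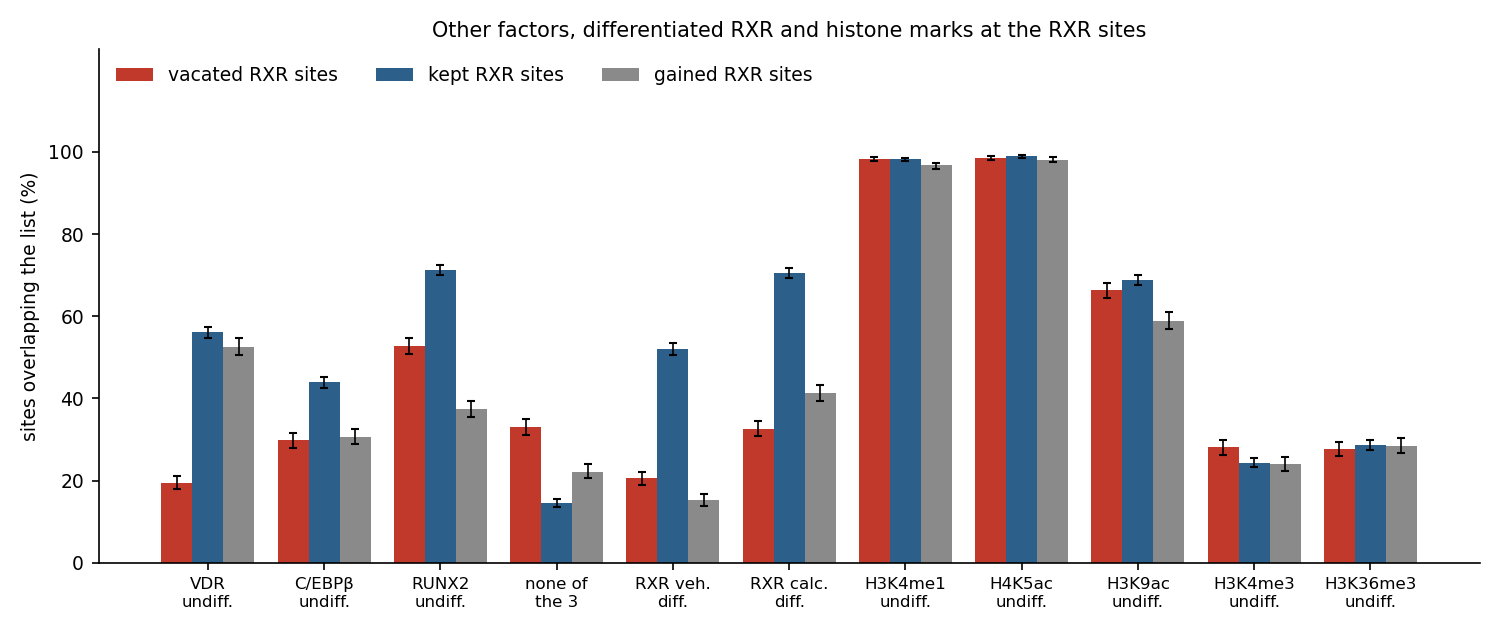
Share of vacated, kept and gained RXR sites (percent) that overlapped each other list by at least 1 bp; error bars are exact 95% intervals, and undiff. and diff. stand for undifferentiated and differentiated cells. VDR was called at 19.4% of vacated sites, 56.1% of kept sites and 52.6% of gained sites, while the H3K4me1 and H4K5ac shares in undifferentiated cells were between 96.7% and 98.9% over the 3 sets.

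Seen from the vehicle sites, the share that was vacated was lower in each combination that held VDR. Of the 7834 vehicle sites, 32.7% were vacated. With RUNX2 alone, 696 of 1603 sites were vacated (43.4%, 41.0 to 45.9), and with no other factor 847 of 1611 (52.6%, 50.1 to 55.0), a difference of -9.16 points (-12.6 to -5.71). C/EBPβ alone, at 222 of 453 sites (49.0%, 44.3 to 53.7), did not differ from none beyond the interval of the difference (-8.75 to 1.63 points). With VDR alone, 92 of 362 were vacated (25.4%, 21.0 to 30.2), -18.0 points (-22.9 to -12.7) from RUNX2 alone. With all 3 factors, 188 of 1611 sites were vacated (11.7%, 10.1 to 13.3). Adding C/EBPβ to VDR and RUNX2 gave no difference whose interval left out 0 (-4.98 to 0.0895 points). At promoters the 4 combinations with VDR had 12.8% to 23.8% of sites vacated and the 4 without VDR 42.9% to 47.5%, and away from promoters 11.4% to 26.3% with VDR and 42.0% to 55.2% without. Within these 2 groups the order of the combinations changed at promoters, where VDR with C/EBPβ was lowest at 5 of 39 sites (12.8%, 4.30 to 27.4), beside all 3 factors at 18 of 126 (14.3%, 8.69 to 21.6).

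**Figure D3:**
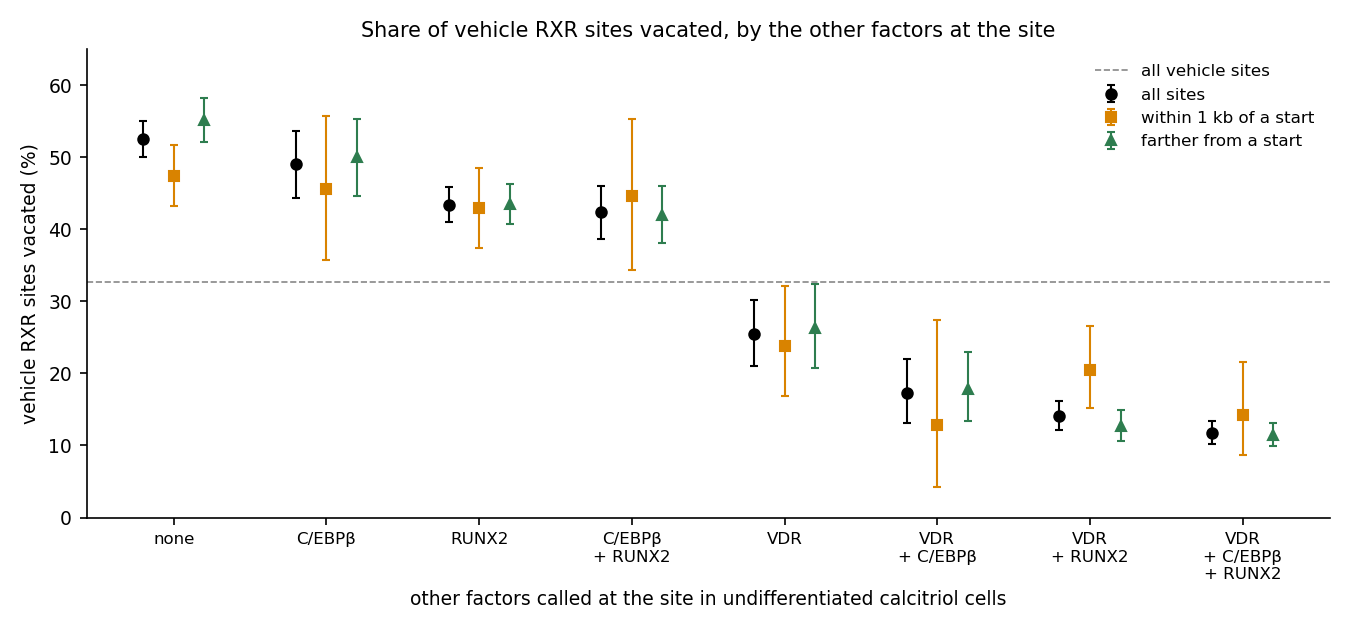
Share of vehicle RXR sites vacated (percent, with exact 95% intervals) by which of VDR, C/EBPβ and RUNX2 were called at the site in undifferentiated calcitriol-treated cells, for all sites and by distance to an annotated start; the dashed line is the share over all 7834 sites. Over all sites, the 4 classes with VDR lie below the line at 11.7% to 25.4%, and the 4 classes without VDR lie above it at 42.4% to 52.6%.

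The 498 vacated sites that had VDR with calcitriol, yet no RXR call, held more of the other factors than vacated sites without VDR and fewer than kept sites with VDR, and 92 of them had VDR alone. RUNX2 was called at 354 of the 498 (71.1%) and at 998 of the 2067 vacated sites without VDR (48.3%), a difference of 22.8 points (18.1 to 27.2). C/EBPβ was called at 240 (48.2%) and at 524 (25.4%), a difference of 22.8 points (18.1 to 27.6). Kept sites with VDR had RUNX2 at 2436 of 2956 (82.4%), so the vacated sites with VDR differed from them by -11.3 points (-15.7 to -7.26). They had C/EBPβ at 1673 (56.6%), a difference of -8.40 points (-13.1 to -3.67). VDR was newly called at 426 of the 498 sites (85.5%), in that the VDR vehicle list had no region there. This was not particular to them, as a VDR vehicle region was more frequent there than at kept sites with VDR. That difference was 3.16 points (0.100 to 6.69). The whole VDR lists of undifferentiated cells held 937 regions under vehicle and 7000 with calcitriol. The VDR centre lay within 50 bp of the RXR centre at 306 sites (61.4%), a share not compared here with that of kept sites with VDR. At 404 sites (81.1%) the nearest RXR calcitriol site was more than 1000 bp away. Among sites without VDR, vacated ones still had less RUNX2 than kept ones (48.3% and 57.0%, a difference of -8.70 points, -11.6 to -5.74), whereas the C/EBPβ difference, -2.41 points, had an interval that held 0 (-5.01 to 0.217).

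RXR in differentiated cells was likewise less often called at the vacated sites. The differentiated calcitriol list held 836 vacated sites (32.6%, 30.8 to 34.4) and 3721 kept sites (70.6%, 69.4 to 71.8), a difference of -38.0 points (-40.2 to -35.8). The differentiated vehicle list held 527 vacated sites (20.5%) and 2742 kept sites (52.0%), a difference of -31.5 points (-33.5 to -29.4). Either list held 932 vacated sites (36.3%), so 1633 were seen in neither. The absence with calcitriol did not repeat at most of the sites that differentiated cells also held under vehicle: 431 of those 527 vacated sites (81.8%, 78.2 to 85.0) were called with calcitriol too, against 2600 of 2742 kept sites (94.8%, 93.9 to 95.6). For gained sites it was 302 of 357 (84.6%), and the interval of vacated minus gained held 0 (-7.69 to 2.32 points). Over all vehicle sites it was 3031 of 3269 (92.7%). The whole differentiated RXR lists held 4815 regions under vehicle and 8126 with calcitriol. Only 96 vacated sites (3.74%) and 142 kept sites (2.70%) were in the differentiated vehicle list alone, a difference of 1.05 points (0.229 to 1.95). A further 405 vacated sites (15.8%) and 1121 kept sites (21.3%) were in the differentiated calcitriol list alone.

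The difference in differentiated RXR was present in each class of other factors. Among sites with no other factor, the differentiated calcitriol list held 232 of 847 vacated sites (27.4%) and 466 of 764 kept sites (61.0%), a difference of -33.6 points (-38.1 to -28.9). Among sites with all 3 factors it held 116 of 188 vacated sites (61.7%) and 1227 of 1423 kept sites (86.2%). Combining the lists, 586 of the 856 vehicle sites with no other factor and in neither differentiated RXR list were vacated (68.5%, 65.2 to 71.6). Of the 985 sites with all 3 factors and in both differentiated RXR lists, 70 were vacated (7.11%, 5.58 to 8.89). Other factors of differentiated cells were also called less often at vacated sites: RUNX2 at 737 (28.7%) and at 2509 kept sites (47.6%), C/EBPβ at 580 (22.6%) and at 1738 kept sites (33.0%), and VDR with calcitriol at 36 (1.40%) and at 280 kept sites (5.31%).

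The chromatin marks differed little between vacated and kept sites. H3K4me1, a mark of enhancers and promoter flanks, covered 2523 vacated sites (98.4%) and 5178 kept sites (98.3%), a difference of 0.0897 points (-0.562 to 0.665). H4K5ac, an acetylation of active chromatin, covered 2530 vacated sites (98.6%) and 5213 kept sites (98.9%), with an interval of -0.882 to 0.193 points. H3K9ac covered 1703 vacated sites (66.4%) and 3627 kept sites (68.8%), a difference of -2.44 points (-4.67 to -0.242). The size of the H3K9ac difference depended on the choice of sites: it was -5.87 points (-8.26 to -3.50) with no RXR calcitriol site within 1 kb and -5.08 points (-7.70 to -2.47) without promoters, but its interval held 0 with a stricter overlap (-0.337 points) or only regions merged from 2 peaks (-0.555 points). H3K4me3, the promoter mark, covered 720 vacated sites (28.1%) and 1283 kept sites (24.4%), a difference of 3.72 points (1.65 to 5.83). Away from starts the H3K4me3 difference was 1.43 points and its interval held 0 (-0.360 to 3.31), and at promoters it covered 75.2% of vacated and 74.7% of kept sites. H3K36me3, found over transcribed gene bodies, covered 711 vacated sites (27.7%) and 1509 kept sites (28.6%), with an interval of -3.02 to 1.22 points. These marks were measured with calcitriol, when RXR was not called at the vacated sites. None of the 5 marks was found at 12 of the 2565 vacated sites (0.468%), 16 of 5269 kept sites (0.304%) and 18 of 2334 gained sites (0.771%). The interval of vacated minus kept held 0 (-0.111 to 0.531 points), so a mark at nearly every site was not particular to vacated sites. In differentiated cells H3K9ac covered 2063 vacated sites (80.4%) and 4535 kept sites (86.1%), a difference of -5.64 points (-7.46 to -3.87). H3K9ac was more frequent at vacated than at gained sites, by 7.44 points (4.73 to 10.1) in undifferentiated and 6.56 points (4.21 to 8.92) in differentiated cells. In undifferentiated cells H3K4me3 exceeded gained sites by 4.08 points (1.62 to 6.52) and H3K4me1 by 1.62 points (0.758 to 2.52). For H4K5ac and H3K36me3 there, the intervals of vacated minus gained held 0.

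Vacated sites lay somewhat more often at promoters. A centre within 1 kb of an annotated start of a protein-coding gene was found at 584 vacated sites (22.8%) and 987 kept sites (18.7%), a difference of 4.04 points (2.12 to 5.99). Intergenic sites numbered 1102 (43.0%) and 2508 (47.6%), a difference of -4.64 points (-6.97 to -2.29). Introns held 844 vacated sites (32.9%) and 1708 kept sites (32.4%). The promoter excess was not found in every class: among sites with no other factor, promoters were less frequent in vacated than in kept sites by -7.01 points (-11.6 to -2.37), and among sites without VDR the difference was -1.47 points (-4.01 to 1.08). Vacated promoter sites held no other factor in 261 of 584 cases (44.7%), against 289 of 987 kept promoter sites (29.3%). GC content had a median of 50.7% at vacated and 51.2% at kept sites, and the median count of CpG dinucleotides was 3 in both. Vacated sites made up 26.8% of the vehicle sites of chromosome 8 and 40.5% of those of chromosome 12, with the other autosomes between, and 24 of 51 on the X chromosome (47.1%). They were mostly solitary, with 2170 having no other vacated site within 10 kb of them.

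The letters under the vacated sites held no excess of DR3. A DR3 with at most 1 mismatch in the 12 defined bases, on either strand, was found in 19 vacated sites (0.741%, 0.447 to 1.15), in 112 kept sites (2.13%, 1.75 to 2.55) and in 403 gained sites (17.3%). Windows of the same length 2 kb to either side of the vacated sites held it at 0.877% (0.641 to 1.17), and those beside the kept sites at 1.20% (0.997 to 1.42). Vacated sites were thus at the level of their flanks, and the difference from kept sites was -1.38 points (-1.89 to -0.839). Without mismatch, DR3 was found in 0 of 2565 vacated sites, in 6 kept sites (0.114%) and in 78 gained sites, and the interval of vacated minus kept held 0. For the vacated share, 3 divided by the number of sites gave an approximate 1-sided 95% upper limit of 0.117%. The exact interval was not used for that limit. Among sites with VDR, 2 of 498 vacated sites (0.402%) and 89 of 2956 kept sites (3.01%) had one (-2.61 points, -3.35 to -1.42). Among sites without VDR, 17 of 2067 vacated and 23 of 2313 kept sites had one (-0.172 points, -0.754 to 0.420); whether these 2 differences differ from each other was not tested. The matches of the Nudt4 and Itgb5 sites printed above are those 2.

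Other repeats were rare too. DR4 was found in 63 vacated sites (2.46%, flanks 1.44%) and 195 kept sites (3.70%, flanks 1.52%), a difference of -1.24 points (-2.01 to -0.419). DR5 was found in 62 vacated sites (2.42%, flanks 1.50%) and 173 kept sites (3.28%, flanks 1.21%), a difference of -0.866 points (-1.60 to -0.0607). The DR5 interval held 0 under 4 of 6 alternatives, with values of -0.809 to -0.163 points, and that of DR4 held 0 without mismatch (-0.164 points). For DR1, at 66 vacated sites (2.57%, flanks 2.36%), and DR2, at 56 (2.18%, flanks 3.04%), the intervals of the difference from kept sites held 0. These letters overlap between repeats, and a match is a description of the sequence.

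Motifs of factors outside the receptor family were as frequent at vacated as at kept sites, or nearly so. The RUNX motif was present in 737 vacated sites (28.7%, flanks 9.06%) and 1691 kept sites (32.1%, flanks 8.97%), a difference of -3.36 points (-5.50 to -1.19). That difference was -0.551 points in a narrower window (-2.37 to 1.32) and -2.26 points without promoters (-4.76 to 0.280), where the interval held 0. By RUNX2 call, 625 of the 1352 vacated sites with RUNX2 had it (46.2%, 43.5 to 48.9), and 81 of the 847 with no other factor (9.56%, 7.67 to 11.7). With RUNX2 present, the motif was more frequent at vacated than at kept sites, by 4.19 points (1.11 to 7.29; kept 42.0%). The TEAD hexamer GGAATG was present in 577 vacated sites (22.5%, flanks 9.92%) and 1199 kept sites (22.8%). The AP-1 motif TGANTCA was present in 356 vacated sites (13.9%, flanks 5.98%) and 733 kept sites (13.9%). The NF1 hexamer was present in 508 vacated sites (19.8%, flanks 9.79%) and 1114 kept sites (21.1%). For TEAD, AP-1 and NF1 the intervals of the difference held 0. The C/EBP motif, at 409 vacated sites (15.9%), was at the level of the flanks (16.5%), as was the E-box CANNTG (64.7%, flanks 67.1%).

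**Figure D4:**
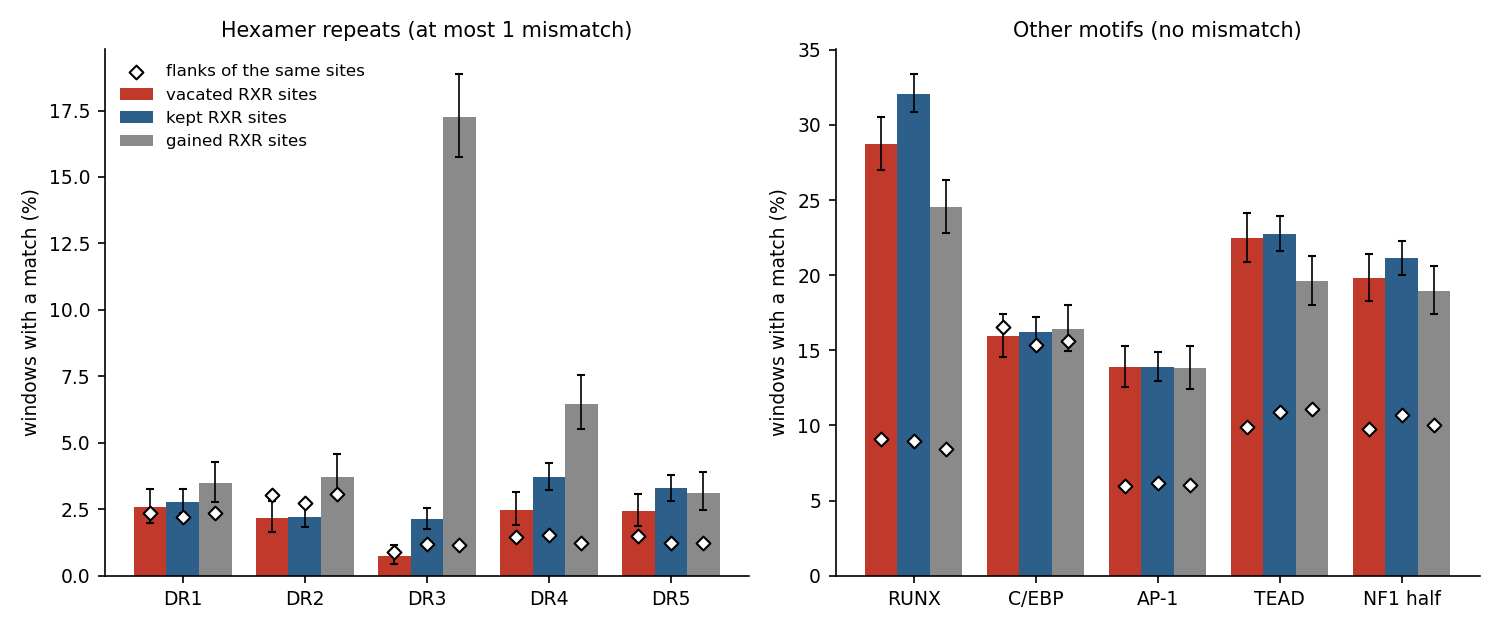
Share of windows of a site's width with a match (percent) at vacated, kept and gained RXR sites, with exact 95% intervals; diamonds are the windows 2 kb to either side of the same sites, and the vertical scales differ between panels. DR3 is at 0.741% of vacated sites, 2.13% of kept sites and 17.3% of gained sites, and RUNX, AP-1, TEAD and NF1 matches exceed the flanks in each set.

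Protein-coding genes near vacated sites numbered 5521 of 22208 (24.9%), counting a start within 100 kb of a site's centre, and 3597 of them had a kept site in reach as well. Of all genes, 1423 (6.41%) had a vacated site and no RXR calcitriol site within 100 kb. Of genes near a vacated site, 2238 of 5521 (40.5%) also had a gained site, and of genes near a kept site, 3247 of 7904 (41.1%). Proximity does not show that a site acts on a gene, and the gene lists below were chosen with results of these data known. A kept site was in reach of 35.6% of all genes, and of the pairs of a gene and a vehicle site within 100 kb of it, 33.6% over all genes were pairs with a vacated site; that share is given beside the count of each list.

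Among genes of RXR and its dimer partners, 12 of 19 had a vacated site within 100 kb, and 35.2% of the gene and site pairs were vacated. Rarg had 3, of which the nearest to a start is printed above. Thra, the gene for thyroid hormone receptor alpha, had 1, in an intron 2590 bp from a start, with none of VDR, C/EBPβ and RUNX2. Rxrb, which encodes RXR beta, and Vdr were picked after their values were seen. Rxrb had 5 vacated, 4 kept and 2 gained sites, with a vacated site 146 bp from a start that had VDR and RUNX2 and was in both differentiated RXR lists. Vdr had 2 vacated, 4 kept and 2 gained sites, and both of its vacated sites had C/EBPβ and RUNX2 but no VDR.

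Vitamin D responsive genes had a vacated site at 10 of 17, with 34.2% of pairs vacated. The nearest to a start belonged to Efcab2, 276 bp upstream, with C/EBPβ. Cyp27b1, the renal enzyme that makes calcitriol, had 1 vacated site 69694 bp from its start with VDR and RUNX2, no RXR calcitriol site, and 4 VDR sites within 100 kb. That vacated site lay 161 bp from a start of another gene, Ctdsp2. Bglap had 1 vacated and no RXR calcitriol site. For other receptor pathways the counts were 6 of 14 retinoic acid responsive genes (24.4% of pairs vacated), 5 of 13 PPAR targets (36.4%), 7 of 11 LXR targets (37.5%) and 3 of 8 thyroid hormone responsive genes (21.4%). Ucp3, a mitochondrial uncoupling protein regulated by PPARs, had 2 vacated sites, at 7074 and 11260 bp, and no RXR calcitriol site in undifferentiated cells, while the differentiated calcitriol list held both. Fabp4, the adipocyte fatty acid binding protein, had 1 at 85979 bp, present in both differentiated lists and nearer to Fabp12, 6619 bp from a start of that gene. Hr, the hairless corepressor gene, had 1 at 2719 bp, present in both differentiated lists. Apoe, the apolipoprotein E gene, had 1 at 50592 bp with RUNX2, in the differentiated calcitriol list. The Apoe site lay 185 bp from a start of another gene, Pvrl2. Pltp, the phospholipid transfer protein gene, had 1 vacated site 227 bp from a start with RUNX2, beside 3 kept sites.

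Genes of the osteoblast programme had a share of vacated pairs near that over all genes. Of 13 osteoblast transcription factor genes, 11 had a vacated site (32.1% of pairs vacated) and 9 a kept one. At Runx2 the vacated site lay 18 bp from a start, was called for C/EBPβ and RUNX2 itself, and was in neither differentiated RXR list; 2 kept sites lay in introns, 24669 and 56701 bp from a start. Lef1 had the distant site printed above as its only RXR site in reach. Atf4, picked after its values were seen, had one 137 bp from a start with VDR and RUNX2. Of 18 bone matrix and mineralisation genes, 13 had a vacated site (35.3% of pairs vacated) and 15 a kept one. In these 2 lists Lef1, Twist1, Phex, Bglap and Enpp1 had 1 vacated and no kept site. Postn, the periostin gene, had 3 vacated and 1 kept site, with a vacated site 29 bp from a start and no other factor on it. Phex had its intronic site alone, with no kept or gained RXR site and no VDR site within 100 kb.

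The type I collagen genes, picked after their values were seen, had several of each kind. Col1a1 had 5 vacated, 13 kept and 4 gained sites, and none of its vacated sites had VDR. Its nearest vacated site lay 9721 bp from a start, while kept sites lay 90 and 389 bp from starts. Col1a2 had 5 vacated and 8 kept sites, with a vacated site 34 bp from an annotated start and a kept site 2 bp from another. Of 19 genes of Wnt, BMP and TGF-beta signalling, 8 had a vacated site (21.6% of pairs vacated) and 17 a kept one; the nearest, 137 bp inside Id3, an inhibitor of helix-loop-helix factors induced by BMP, had VDR.

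**Figure D5:**
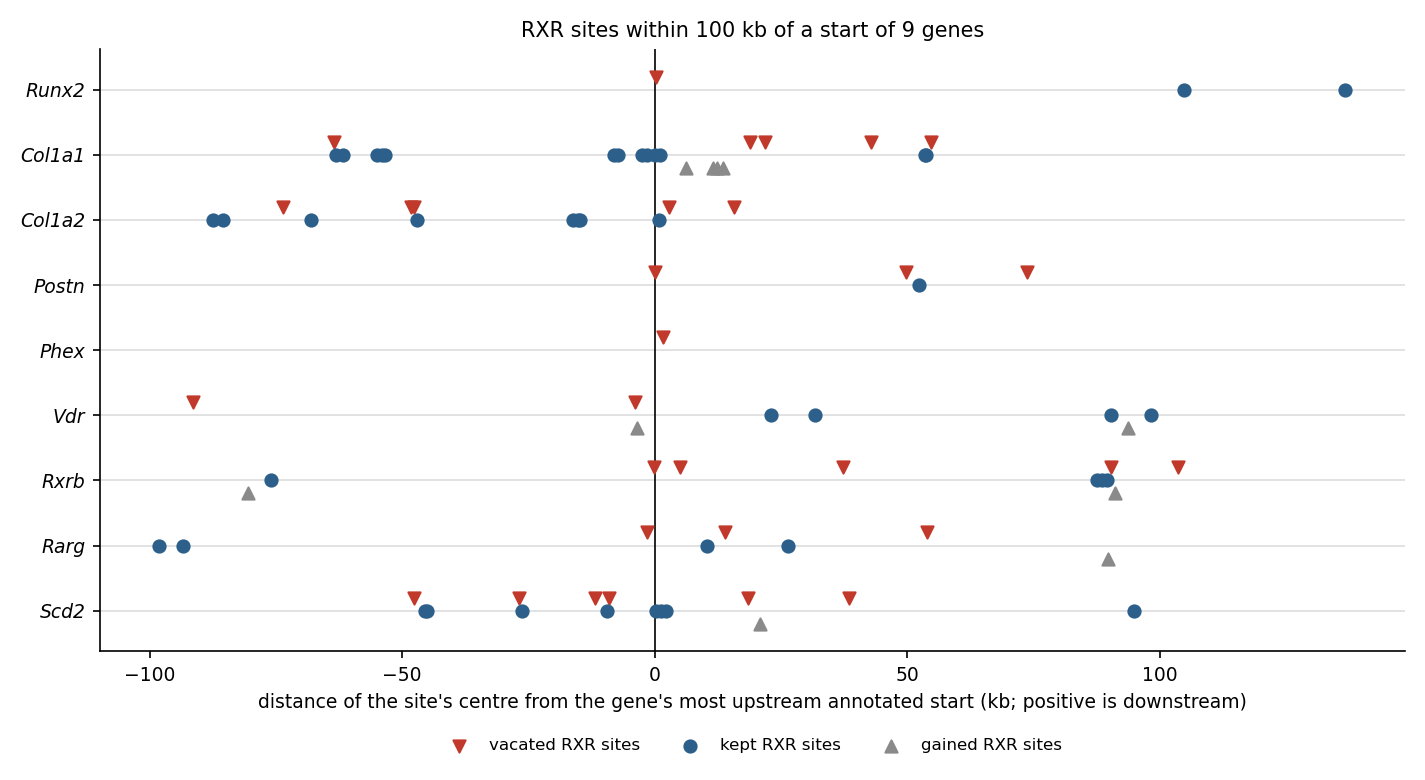
Vacated, kept and gained RXR sites within 100 kb of any annotated start of 9 genes, by the distance of their centres from the most upstream start (kb, positive downstream of it). Runx2 and Phex each have 1 vacated site close to the start, Postn has a vacated site at its start, and Col1a1 has kept sites around its start with its vacated sites farther off.

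Housekeeping genes had a vacated site at 3 of 12, with 31.8% of pairs vacated. Actb, which encodes cytoplasmic actin, had 4 vacated, 10 kept and 8 gained sites, with a vacated site 19 bp from a start that had VDR and RUNX2. Gapdh, a glycolytic enzyme gene, had 2 vacated sites and no RXR calcitriol site, the nearer 30 bp from a start, and Tbp, the TATA-binding protein gene, had 1 at 1525 bp with VDR. The Tbp site lay 87 bp from a start of another gene, Psmb1. Muscle markers had a vacated site at 1 of 8 (Mb, at 8652 bp), with 2 vacated and 2 kept pairs (50% vacated). Blood markers had one at 1 of 7 (Hba-a1, at 58490 bp), with 1 vacated and 3 kept pairs (25% vacated). The Hba-a1 site was nearer to another gene, Mpg, 1484 bp from a start.

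The genes with most vacated sites in reach fell into a few loci. Dnm3, the gene for a dynamin, had 9, of which 8 lay in its introns and were in neither differentiated RXR list, beside 5 kept sites. Dhx8, an RNA helicase gene, had 8 vacated and 7 kept sites, and Arl4d and Rdm1, which share its locus on chromosome 11, had 7 vacated each. Of the 8 sites near Dhx8, 5 had VDR, and 2 were in the differentiated calcitriol list. Scd2, Scd3 and Scd4, adjoining genes for stearoyl-CoA desaturases on chromosome 19, had 6 vacated sites each. Of the 6 near Scd2, none had VDR and 2 had RUNX2, while a kept site lay 277 bp from its start. Pdk2, a pyruvate dehydrogenase kinase gene, and Samd14 had 6 vacated sites each, in part the same as those of Col1a1. Frmd4a, a scaffold protein gene, had 6 vacated, 3 kept and no gained sites, with RUNX2 on 5 of the 6. Over all vacated sites, VDR was called at 19.4% and RUNX2 at 52.7%. The differentiated RXR calcitriol list held 32.6% of them, and either differentiated RXR list 36.3%. The counts of single loci were not tested against these shares.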

How the data were processed

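The deposited files are 22 lists of regions, each described as the overlap of replicate peaks, in mm9 coordinates. Per the submitters' processing notes, Bowtie and HOMER were used; the sources used here do not give the peak threshold or the number of replicates. Factor regions are all of 1 width. The score column deposited by the authors is 0 for factors, and for histone marks its meaning is not stated; it served only to leave out the lowest 0.25 of a mark list as an alternative. The sample titles name H4K5ac where the labels' protocol names H3K5Ac.

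Sites on chromosomes 1 to 19 and X were compared by overlap of at least 1 bp. Vacated and kept sites were compared by shares with exact 95% intervals and Newcombe's 95% interval of the difference, since 1 list per group allows no test over samples. Starts of protein-coding genes came from GENCODE vM1 and sequence from NCBIM37, whose chromosome lengths hold all regions. Motifs were searched on both strands of each site and of flanks 2 kb away. Calculations used Python 3.11.15, numpy 2.4.6 and scipy 1.17.1, and were checked on simulated regions. Repeat content was not used here, as the sequence is not masked.

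Named genes were the 10 with most vacated sites within 100 kb of a start, list members with a vacated and no RXR calcitriol site within 100 kb, and for each list the member nearest to a vacated site; other genes are marked as picked after their values were seen. The sites, lists and rules were chosen with earlier results of these data known. Alternatives were a stricter overlap, no RXR calcitriol site within 1 kb, regions merged from 2 peaks in both RXR lists, no promoters, centres within 50 bp, other motif windows and gene windows of 50 and 20 kb.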

Additional observations from a re-analysis of the deposited data

How the results depend on the processing

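Of 180 alternative values for 37 results, 148 kept their direction and their side of 0, among them all of VDR with calcitriol, C/EBPβ, RUNX2, differentiated RXR calcitriol, sites without another factor and the promoter share. In 4 the interval left out 0 where the main one held it. Among these 4 were H4K5ac in undifferentiated cells (-1.06) and H3K4me1 in differentiated cells (-0.874), with the lowest 0.25 of the mark list left out. Another was VDR vehicle in differentiated cells (-0.580, only regions merged from 2 peaks). The H3K9ac difference in undifferentiated cells, -2.44 points, was -0.337 with a stricter overlap and -0.555 with only regions merged from 2 peaks, where its interval held 0, but -5.87 with no RXR calcitriol site within 1 kb and -5.08 without promoters. The DR3 difference was -0.114 points without mismatch, where few sites had a match and the interval held 0. The DR5 difference, -0.866 points, had an interval that held 0 with no RXR calcitriol site within 1 kb (-0.809), without promoters (-0.598), without mismatch (-0.163) and in a narrower window (-0.555), DR4 without mismatch (-0.164), and the RUNX motif, -3.36 points, without promoters (-2.26) and in a narrower window (-0.551). The H3K4me3 differences also lost this call without promoters (1.43 in undifferentiated and 0.918 in differentiated cells). Genes near a vacated site numbered 3425 within 50 kb and 1886 within 20 kb, against 5521 within 100 kb. Differences whose interval already held 0 changed sign at small size: H3K4me1 in undifferentiated cells to -0.0144 (no RXR calcitriol site within 1 kb), -0.106 (no promoters) and -0.394 (lowest 0.25 of the mark list left out); H3K36me3 in undifferentiated cells to 0.0260 (stricter overlap) and 0.241 (no promoters), and in differentiated cells to 0.236 and 0.216; introns to -0.213 (stricter overlap) and -0.167 (2 peaks); DR2 to 0.0698 (narrower window); the C/EBP motif to 0.440 (no promoters); AP-1 to 0.112 (1 kb) and 0.0787 (no promoters); and TEAD to 1.03 (1 kb). The cause was not tested. No paired analysis was possible because each group has 1 list. Depth is unknown, and how many vacated sites lie just under the peak threshold cannot be read from the lists.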
